A study of Mus musculus with 24 samples.

Results

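Cortex and hippocampus marker genes were followed through the brains of mice on 4 diets. The set held 32 genes, named for the layers of the cerebral cortex, the subplate beneath them, the pallium as a whole or the fields of the hippocampus, and each was read from the probe set (a group of oligonucleotides designed for 1 gene) that was annotated to that gene alone and had the highest mean over all arrays. Such a probe set was found for 31 of the 32 genes, and 28 passed the filter on low values and were tested among 13839 features, of which 11645 are genes. The rule used no difference between diets or batches.

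The RNA came from the right cerebral hemisphere of 24 female NMR-1 mice, 8 weeks old at the start and 2 weeks on diet, with 1 Affymetrix mouse expression array per mouse. Each diet had 6 mice and the RNA of 3 of them was processed in each of 2 labelled batches. The Chimpanzee group ate vegetables, fruit and yogurt, the HumanCafe group cooked cafeteria meals, the FastFood group food of a fast food restaurant, and the Pellet group the mouse pellets on which all the animals had been raised. No gene was altered and no agent was given in any group, and littermates were spread over the groups. A dissected hemisphere holds many regions and cell types, and in such bulk RNA fewer cells of a type and less RNA per cell cannot be told apart.

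The pallium is the dorsal part of the embryonic forebrain, from which the cerebral cortex and the hippocampus grow. Its excitatory neurons are laid out in layers, in which the upper ones mostly join cortical areas to each other while the deep ones send axons to the thalamus, brain stem and spinal cord, and each layer is told by transcription factors and synaptic proteins that its neurons keep into adult life. In tissue that also holds striatum, thalamus and white matter, the summed level of such genes follows how much cortex and hippocampus the sample contains as well as what its neurons transcribe.

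Levels are log2 values made by the authors with robust multichip averaging, and they were set side by side only within a gene. Among the upper-layer genes, the homeodomain factors Cux1 (1451435_at) and Cux2 (1447500_at) had mean levels of 6.67 ± 0.16 and 7.17 ± 0.39 (SD, n = 24). The nuclear receptor Rorb (1455799_at) lay at 7.71 ± 0.37 and Rasgrf2 (1440849_at), an exchange factor for Ras, at 8.51 ± 0.38. Lamp5 (1423853_at), a membrane protein of vesicles, lay at 9.16 ± 0.45 and Stx1a (1437390_x_at), a protein of synaptic vesicle fusion that most neurons use, at 9.67 ± 0.33. Within this group Lamp5 varied most between arrays and Cux1 least.

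The deep layers and the subplate gave 14 of the 32 genes. The zinc finger factors of subcortical projection neurons Fezf2 (1418790_at) and Bcl11b (1435227_at) lay at 6.32 ± 0.24 and 8.31 ± 0.45 (SD, n = 24), and the T-box factor Tbr1 (1416711_at) at 5.92 ± 0.30. The forkhead factor Foxp2 (1438232_at) and the corepressor Tle4 (1450853_at), both of corticothalamic neurons, lay at 6.58 ± 0.45 and 7.38 ± 0.46. Bcl11b and Foxp2 are also made in striatum. The synaptotagmin Syt6 (1426106_a_at) lay at 4.14 ± 0.20, just above the filter of 4.07, the thyroid hormone binding protein Crym (1416776_at) at 7.99 ± 0.35 and the calmodulin-binding peptide Pcp4 (1460214_at) at 11.33 ± 0.39. Netrin-G2, the product of Ntng2 (1432033_at), is anchored to axonal membranes and its transcript lay at 5.49 ± 0.45. The matricellular genes Ccn2 (1416953_at) and Ccn3 (1426852_x_at) lay at 6.73 ± 0.40 and 8.02 ± 0.32, and the complexin Cplx3 (1424606_at), which marks the subplate with Ccn2, at 5.16 ± 0.25. The homeobox gene Otx1 (1437601_at) had a mean of 3.38 and was not tested, and the 3 probe sets of the ETS factor Etv1 were all annotated to several genes, so that no value is given for it.

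Of the 8 genes of broad pallial identity, the helix-loop-helix factors Neurod2 (1435411_at) and Neurod6 (1418047_at) lay at 7.61 ± 0.25 and 7.27 ± 0.51 (SD, n = 24) and the homeobox gene Emx1 (1441777_at) at 6.33 ± 0.31. Mef2c (1424852_at), an activity-dependent transcription factor, lay at 10.41 ± 0.50, and Nrgn (1423231_at), whose product neurogranin binds calmodulin in dendritic spines, at 10.53 ± 0.31. The LIM-only genes Lmo3 (1455754_at) and Lmo4 (1420981_a_at) lay at 7.88 ± 0.40 and 8.82 ± 0.32. In the hippocampal group, Wfs1 (1448411_at), an endoplasmic reticulum protein of pyramidal cells, lay at 8.08 ± 0.29, Fibcd1 (1435482_at), an acetyl-group receptor, at 4.66 ± 0.27, and Dkk3 (1417312_at), a secreted relative of the Wnt inhibitors, at 7.86 ± 0.39. Emx2 (1456258_at) at 3.54 and Prox1 (1437894_at), the homeobox gene of dentate granule cells, at 3.40 were below the filter and were not tested.

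A second probe set at or above the filter existed 22 times, for 11 of the tested genes. Their correlation with the chosen probe set over the 24 arrays ran from -0.21 to 0.96 with a median of 0.64. For Mef2c it was 0.90 to 0.95 and for Foxp2 0.88 and 0.92, while the other probe sets of Cux1 gave -0.21, -0.17 and 0.21 and those of Cux2 gave 0.15 and -0.15. Values of Cux1 and Cux2 therefore rest on 1 probe set each. Agreement was also incomplete for Rorb (0.19 and 0.55), Rasgrf2 (0.58 and 0.17), Neurod2 (0.37) and Bcl11b (0.48, 0.87 and 0.71).

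Several arrays stood apart. The array Pellet batch 2 replicate 1 had a median correlation with the others of 0.893 where the rest had 0.980 to 0.993, and its values spread least, with an SD of 1.58 against 1.81 to 2.06. It was the lowest of the 24 arrays for 22 of the 28 tested genes and the highest for 4, Ntng2, Emx1, Fibcd1 and Syt6. These ranks were not counted over all features. The mean deviation of this array from the mean of the 24 arrays was -0.50 over all features and -0.68 over the 28 genes. The methods leave out 1 pellet array for degraded RNA without naming it, and all 24 were used here. For actin and Gapdh control probes, the log2 difference of 3' over 5' was 0.24 in Pellet batch 2 replicate 1. Over the 24 arrays it ran from 0.17 to 0.39, with the highest in Pellet batch 2 replicate 3. The 18S ribosomal RNA control probes read 5.87 to 6.58 on the 9 food arrays labelled batch 1, above the 4.88 to 5.15 of the 9 labelled batch 2. On pellets the order was the other way round, with 4.96 to 5.51 for the first label and 5.92 to 6.42 for the second, so that the pellet arrays went against the batch labels of the other diets in this measure. The mean log2 level of cerebellum markers, from a region outside the set, ranged from 4.05 to 8.71 over the 24 arrays, with the highest in Pellet batch 2 replicate 3.

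**Figure D1:**
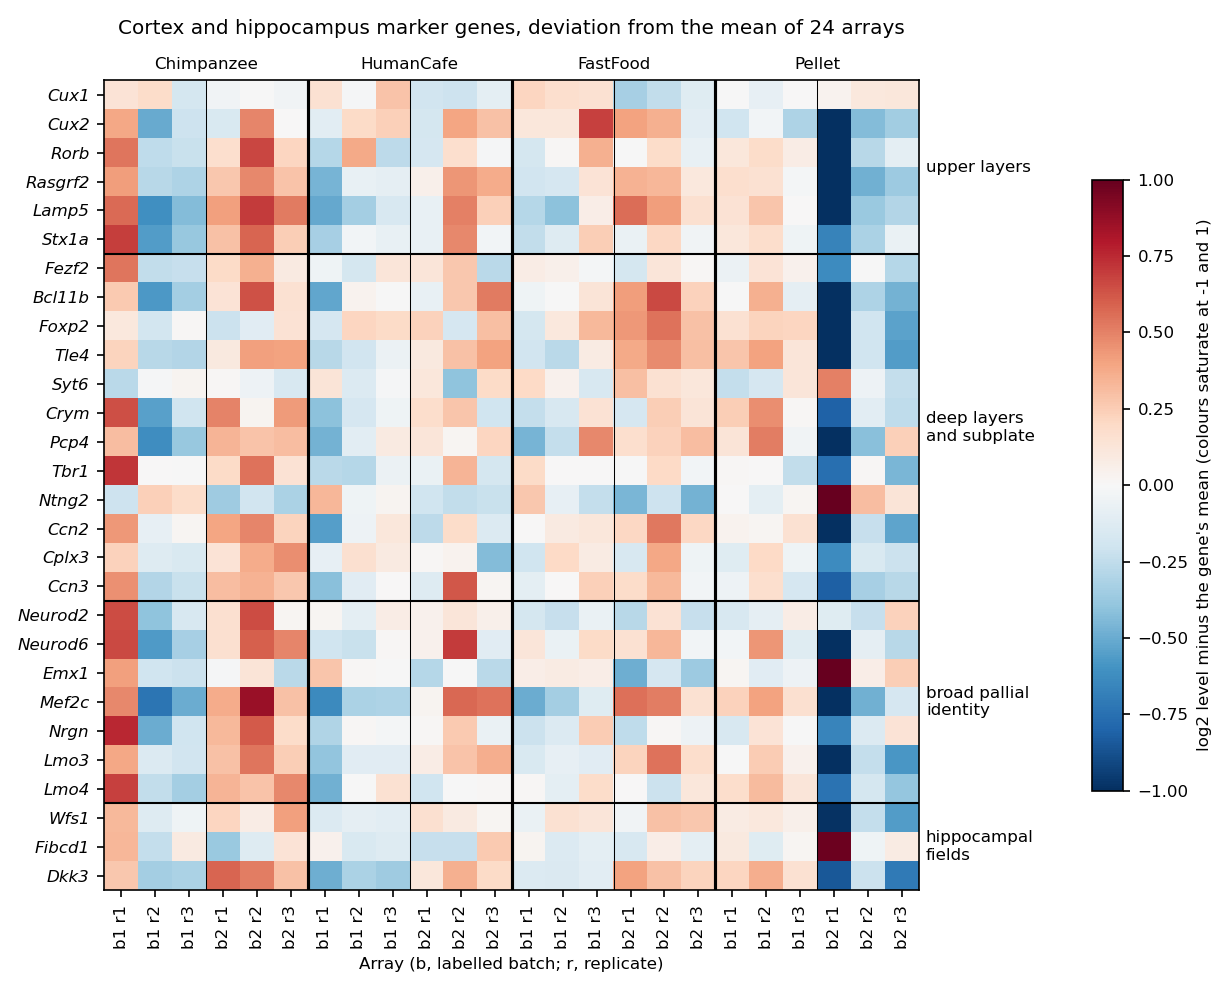
Log2 level minus the gene's mean over 24 arrays, for the 28 tested genes (rows, by group) in each array (columns, by diet, labelled batch and replicate). Chimpanzee batch 1 replicate 1 was above the mean for 26 of 28 genes and Pellet batch 2 replicate 1 for 5, shares that were not counted over all features.

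The genes varied together from mouse to mouse. After the mean of each diet in each labelled batch was subtracted, the 378 pairs of marker genes had a median correlation of 0.58 over the 18 arrays of the 3 foods, while the median over all 67797190 pairs among the 11645 genes was 0.21. A value above 0.5 was found for 56.9% of the pairs and for 25.5% of all gene pairs. All genes of an array share its hybridisation and normalization, so that these values describe the arrays and carry no test. Without Chimpanzee batch 1 replicate 1 and Chimpanzee batch 2 replicate 2, whose mean deviations over the tested genes were the highest at 0.40 and 0.36, the medians were 0.29 and 0.17 over 16 arrays, and 28% and 21.3% of the pairs were above 0.5. Within a diet and batch the SD of a gene over the 3 foods had a median of 0.24, from 0.11 for Cux1 to 0.35 for Neurod6 and Mef2c, and 0.18 over all features. The 2 labelled batches differed, with medians of 0.78 among these genes and 0.37 among all genes over the 9 arrays of batch 1, and of 0.25 and 0.03 over the 9 arrays of batch 2.

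The closest pair was Nrgn and Stx1a, which act on opposite sides of the synapse, with a correlation of 0.97 over the 18 arrays and 0.90 over 16. Rasgrf2 with Lamp5 (0.95 and 0.87), Bcl11b with Lmo3 (0.93 and 0.87) and Fezf2 with Tbr1 (0.92 and 0.82) were among the next, and Crym with Wfs1 gave 0.84 and 0.62. The RefSeq sequence of the 250 bases before the start of Nrgn (GRCm38.p6, chr9:37552746-37552995, minus strand) and of Stx1a (GRCm38.p6, chr5:135023232-135023481, plus strand) is shown because these genes had the highest correlation of the 378 pairs over the 18 arrays. Capitals mark 2 motifs, the E-box variant CAGATG, which helix-loop-helix factors such as Neurod2 can bind, and the GC box GGGCGG. Both were searched on both strands, and they share no bases in these windows.
Nrgn: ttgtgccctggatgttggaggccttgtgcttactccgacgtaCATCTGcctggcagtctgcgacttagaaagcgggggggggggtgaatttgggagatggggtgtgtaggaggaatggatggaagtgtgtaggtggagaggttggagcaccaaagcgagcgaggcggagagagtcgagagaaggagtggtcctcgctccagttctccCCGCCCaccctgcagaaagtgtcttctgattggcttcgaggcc
Stx1a: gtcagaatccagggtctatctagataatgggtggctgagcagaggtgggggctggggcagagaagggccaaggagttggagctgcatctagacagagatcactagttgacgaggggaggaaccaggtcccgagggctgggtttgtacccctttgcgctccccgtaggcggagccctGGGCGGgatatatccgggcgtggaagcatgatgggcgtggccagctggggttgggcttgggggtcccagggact
The Nrgn window held 1 match to the E-box variant and 1 to the GC box, and the Stx1a window 0 and 1. Among the 38 promoters listed for 26 of the 32 genes, 21.1% held the E-box variant and 55.3% the GC box, while among all 32851 promoters of the same length it was 14.4% and 32.7%. A match is a run of letters and was not tested as a binding site.

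In mean correlation with the other tested genes over the 18 arrays, Stx1a had 0.63, Mef2c, Lamp5 and Nrgn 0.61, and Rasgrf2 0.60. Without the 2 chimpanzee diet arrays they had 0.43, 0.37, 0.38, 0.37 and 0.39. At the other end were Syt6 at -0.44 and Ntng2 at -0.41, or -0.38 and -0.21 over 16 arrays. For Ntng2 the sign turned between the labelled batches, with -0.64 in batch 1 and 0.32 in batch 2, while Syt6 had -0.62 and -0.27. The correlation of these 2 with each other was 0.56 over the 18 arrays, 0.96 in batch 1 and 0.03 in batch 2. Cux1 at 0.09, Foxp2 at 0.22 and Fibcd1 at 0.26 followed the others weakly over the 18 arrays.

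The mean deviation of the tested genes in each array, taken relative to the mean deviation of all features of that array, showed which samples carried this pattern. It was 0.30 in Chimpanzee batch 1 replicate 1 and 0.26 in Chimpanzee batch 2 replicate 2, and from -0.14 to 0.11 in the other 16 arrays of the 3 foods. The same 2 arrays had the lowest values of 11 thalamus markers (Tcf7l2, Lef1, Prkcd and others), at -0.90 and -0.84, while the others lay between -0.26 and 0.36. Over the 18 arrays the correlation of the 2 measures was -0.84 (Pearson) and -0.51 (Spearman), and without the 2 arrays farthest from the median it was -0.46, so that its size rests on them. Within the 9 arrays of batch 1 it was -0.88, and 0.33 without the 2 farthest, and within batch 2 it was -0.86 and -0.67. Over all 24 arrays it was -0.59 (Spearman -0.19), and 0.09 without the 2 farthest. With deviations not taken relative to all features, it was -0.39 over the 18 arrays and 0.19 over the 24. Mean log2 levels of the thalamus list ranged from 5.64 to 6.5 in the Chimpanzee group, 6.30 to 6.88 in the HumanCafe group, 6.32 to 6.85 in the FastFood group and 5.50 to 6.78 in the Pellet group.

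Another 27 pallial genes, among them Camk2a, Slc17a7 and Hpca, ran with the cortex and hippocampus markers at a correlation of 0.95 (Spearman 0.89) over the 18 arrays, and of 0.89 without the 2 farthest. Within the batches it was 0.98 and 0.94. For hypothalamus markers the correlation was -0.71 (Spearman -0.57; -0.65 without the 2 farthest), with -0.81 and -0.62 within the batches, and -0.16 and -0.34 there without the 2 farthest. For olfactory bulb markers it was -0.58 (Spearman -0.62, and -0.72 without the 2 farthest), and for cerebellum markers -0.42 (Spearman -0.54). General neuron genes had 0.55, and the remaining lists lay between -0.17 and 0.15. The plot of the per-array means shows the arrays behind the values of the other pallial genes and the thalamus markers. The part of unequal dissection in the results below was not tested.

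**Figure D2:**
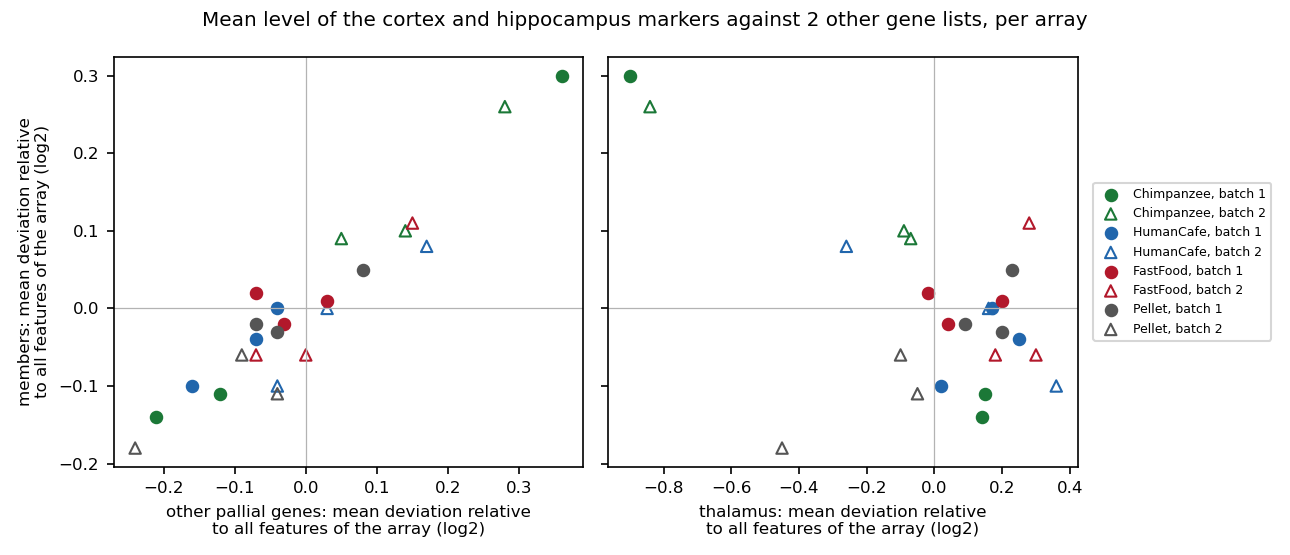
Mean deviation of the 28 tested genes in each of 24 arrays (vertical axis, log2, relative to all features of the array) against that of 27 other pallial genes (left) and 11 thalamus markers (right). The 2 chimpanzee diet arrays at 0.30 and 0.26 lie lowest in thalamus markers, at -0.90 and -0.84.

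Mice on the 2 human diets were first set against mice on the chimpanzee diet, to ask whether the foods of humans and of chimpanzees set expression in the brain apart. No cortex or hippocampus marker differed at an adjusted p under 0.05 in limma, where 0.0% of all features did. At an unadjusted p under 0.05 it was 1 of 28 genes, Tbr1, beside 2.0% of all features. The log2 difference was negative for 24 of 28 genes with a median of -0.10, while 54.5% of all features had a positive difference and their median was 0.01. All 7 genes of broad pallial identity and all 3 hippocampal genes had lower means on the human diets, with medians of -0.13 and -0.09, as had 5 of 6 upper-layer genes (median -0.12) and 9 of 12 deep-layer and subplate genes (median -0.06). Of the other pallial genes 22 of 27 had lower means (median -0.08), and of the thalamus markers 10 of 11 had higher means (median 0.41). None of these passed the test.

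Tbr1, which gives deep-layer neurons their identity, ranged from 5.91 to 6.63 on the chimpanzee diet with a median of 6.09, and from 5.63 to 6.26 on the 12 arrays of the human diets with a median of 5.90. The groups overlapped, and the 2 highest arrays were Chimpanzee batch 1 replicate 1 at 6.63 and Chimpanzee batch 2 replicate 2 at 6.46. Its log2 difference of -0.28 (SE 0.13) had an unadjusted p of 0.041 and an adjusted p of 1.0 in limma, and was -0.31 and -0.25 within the labelled batches. Neurod2, a factor of excitatory neuron maturation, reached 8.26 in the same 2 arrays and lay between 7.21 and 7.77 in the other 4 of the chimpanzee diet, while the human diets gave 7.33 to 7.75. The difference was -0.21 (SE 0.12). Lmo4, a LIM-only cofactor, ranged from 8.48 to 9.50 on the chimpanzee diet (median 9.13) and from 8.34 to 9.0 on the human diets (median 8.82), a difference of -0.25 (SE 0.15). Both had an adjusted p of 1.0.

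The median depended on 2 mice, which had the highest mean over these genes, so that leaving them out raises the mean difference by construction and is no separate test of its direction. Without the 2 chimpanzee diet arrays lowest in thalamus markers, the difference was positive for 19 of 28 genes, beside 68.1% of all features. The median was 0.04, where the median of all features was 0.05. Cux2 (0.42) was the 1 gene with an unadjusted p under 0.05, beside 0.968% of all features. Tbr1 then had -0.10, Neurod2 0.04 and Lmo4 -0.11, and the thalamus markers had a median of 0.15. Some other lists also had higher means on the human diets, none past the test. They were 4 of 4 cerebellum genes (median 0.79, and 0.74 without the 2 arrays), 11 of 11 myelin genes (0.23 and 0.21) and 7 of 7 hypothalamus genes (0.22 and -0.05). Other lists were split, with lower means for 5 of 9 general neuron genes (median -0.01), 7 of 12 striatum genes (-0.02) and 5 of 10 GABAergic interneuron genes (0.01). The 1 red blood cell gene had -0.31. The part of these lists in the result was not tested. In labelled batch 1 alone the median of the 28 genes was -0.04 and in labelled batch 2 alone -0.19.

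Fast food was next set against the cafeteria and chimpanzee diets together. No tested gene of the set differed, at an adjusted p under 0.05 (0.0% of all features) or an unadjusted p under 0.05 (1.17% of all features), and 13 of 28 had higher means on fast food with a median difference of -0.01, beside 65.1% of all features and 0.04. Neurod2 had the smallest p. It ranged from 7.33 to 7.75 on fast food with a median of 7.40, and from 7.21 to 8.26 on the other 2 diets with a median of 7.65, so that the groups overlapped, and its difference was -0.23 (SE 0.12; limma adjusted p = 1.0). Syt6 ranged from 3.98 to 4.44 on fast food (median 4.27) and from 3.74 to 4.33 on the other 2 diets (median 4.13), a difference of 0.15 (SE 0.11). Cux2 ranged from 7.07 to 7.86 (median 7.41) and from 6.67 to 7.66 (median 7.28), a difference of 0.19 (SE 0.16). Both overlapped between the groups and had the same adjusted p as Neurod2. By labelled batch (1, then 2), Neurod2 gave -0.17 and -0.30, Syt6 gave 0.07 and 0.24, and Cux2 gave 0.30 and 0.08. Without the 2 chimpanzee diet arrays they were -0.11, 0.13 and 0.30, and with the mean of all its probe sets Cux2 had 0.08. Thalamus markers had higher means on fast food for 11 of 11 genes, with a median of 0.27 and none past the test. The median of the 28 genes was 0.06 in labelled batch 1 and -0.05 in labelled batch 2. Without the same 2 chimpanzee diet arrays it was 0.08, with 22 positive differences, where 70.1% of all features were positive.

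**Figure D3:**
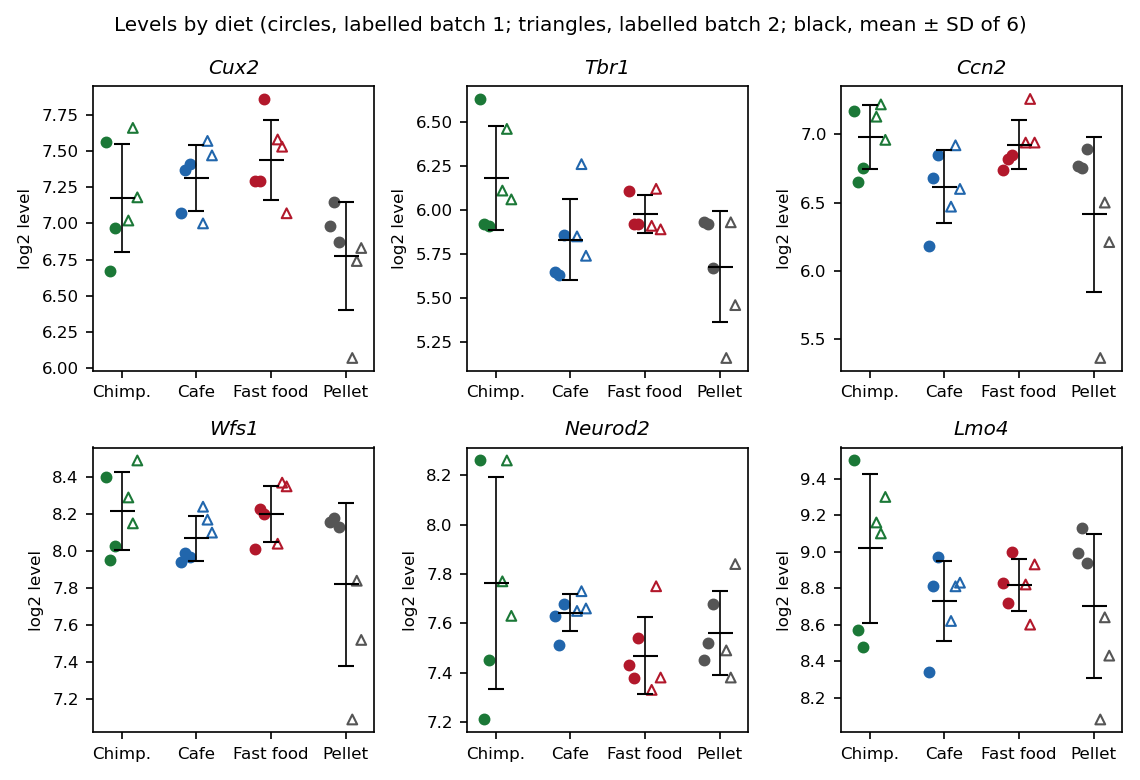
Log2 level of 6 genes in each array by diet, with the mean and SD of 6 mice in black, filled circles for labelled batch 1 and open triangles for labelled batch 2. Cux2 on pellets lay between 6.07 and 7.15, and Neurod2 was at 8.26 in 2 chimpanzee diet arrays.

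Mice on pellets had the lowest mean of the 4 diets for 22 of the 28 genes and mice on the chimpanzee diet the highest for 18. These ranks were not counted over all features. Against the 3 foods together no gene passed an adjusted p under 0.05, beside 0.00723% of all features, and 10 of 28 had an unadjusted p under 0.05, beside 22.8% of all features. Of the 10, Cux2, Rasgrf2, Wfs1, Ccn2, Tbr1, Lmo3, Ccn3, Foxp2 and Bcl11b had lower means on pellets and Ntng2 a higher one. The difference was negative for 24 of 28 genes with a median of -0.22, where 29.4% of all features had a positive difference and the median was -0.14. By group the medians were -0.28 in upper layers, -0.27 in deep layers and subplate, -0.15 for broad pallial identity and -0.23 in the hippocampus. The other pallial genes also had a median of -0.22.

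Cux2 ranged from 6.07 to 7.15 on pellets (median 6.85) and from 6.67 to 7.86 on the foods (median 7.33). Of the 6 pellet values 5 lay within the range of the foods and only Pellet batch 2 replicate 1 below it, and the difference of -0.54 (SE 0.15) had an unadjusted p of 0.0015 and an adjusted p of 0.21 in limma. It was -0.28 and -0.80 within the labelled batches, and the other probe sets of the gene gave -0.01 and 0.00. With the mean of all its probe sets the difference was -0.18. Wfs1 ranged from 7.09 to 8.18 on pellets (median 7.99) and from 7.94 to 8.49 on the foods (median 8.16). Ccn2 ranged from 5.36 to 6.89 on pellets (median 6.63) and from 6.18 to 7.26 on the foods (median 6.85). The pellet arrays of labelled batch 1 lay within the foods for both genes, and those of labelled batch 2 all lay below them for Wfs1 and, with 6.5, 6.21 and 5.36, only the lowest did for Ccn2. The differences were -0.34 (SE 0.13) for Wfs1 and -0.43 (SE 0.16) for Ccn2, with an adjusted p of 0.21 each, and within labelled batch 1 they were 0.08 and 0.06.

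The pellet comparison depended on the labelled batch and on 1 array. In labelled batch 1 alone the median of the 28 genes was 0.10 with 0 called, where all features had a median of 0.11 and 3.43% were called. In labelled batch 2 alone it was -0.64 with 23 called, where all features had -0.43 and 67.3% were called. Without Pellet batch 2 replicate 1 the median over all batches was -0.07, while the median over all features was -0.03. In that fit 1 gene (Cux2, -0.39) had an unadjusted p under 0.05, beside 4.96% of all features. Without the 2 chimpanzee diet arrays named above 6 genes had an unadjusted p under 0.05, beside 15.6% of all features, and the median was -0.19. With an interaction of diet and batch in the fit 6 genes were called (14.9% of all features), and 7 were called after the pellet arrays swapped their batch labels (13.0%). Quantile normalization of the deposited table gave a median of -0.07 with 11 positive differences, where all features had -0.02 and 46.5% were positive.

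In the test of all 4 diets at once, 0 of 28 genes had an adjusted p under 0.05, beside 0.0434% of all features, and 3 had an unadjusted p under 0.05, beside 5.34%. These were Cux2, whose diet means spanned 0.66 from pellets to fast food, Ccn2 (0.57) and Tbr1 (0.50), both from pellets to the chimpanzee diet, each with an adjusted p of 0.72 from limma's F test. Cux2 had means of 7.18 ± 0.37 in the Chimpanzee, 7.31 ± 0.23 in the HumanCafe, 7.44 ± 0.28 in the FastFood and 6.77 ± 0.37 in the Pellet group (SD, n = 6). Ccn2 had 6.98 ± 0.24, 6.62 ± 0.27, 6.93 ± 0.18 and 6.41 ± 0.57 in the same order, and Tbr1 had 6.18 ± 0.30, 5.83 ± 0.23, 5.98 ± 0.11 and 5.68 ± 0.32. Neighbouring diet means in this order of levels differed by less than the larger of their SDs, except for Cux2 between pellets and the chimpanzee diet and Ccn2 between the cafeteria diet and fast food. With the mean of all its probe sets Cux2 spanned 0.23. The median span over the 28 genes was 0.37, beside 0.27 over all features. In labelled batch 2 alone 15 genes passed, where 43.2% of all features did. Leaving out Pellet batch 2 replicate 1 gave spans of 0.52, 0.36 and 0.40. Leaving out the 2 chimpanzee diet arrays left 1 gene, Cux2, with an unadjusted p under 0.05, beside 3.53% of all features.

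The labelled batches were compared on the 3 foods, over 9 arrays each, to give the size of the difference between the 2 sets of RNA. At an adjusted p under 0.05, 11 of 28 genes differed, beside 49.7% of all features, and at an unadjusted p under 0.05 it was 15 of 28, beside 56.2%. At the adjusted threshold labelled batch 2 was higher for 8 of 28 genes, beside 40.3% of all features, and lower for Ntng2, Cux1 and Emx1. The median difference was 0.16, and 0.14 over all features. Among other lists, the 9 general neuron genes were all higher in batch 2 with a median of 0.71, the 11 myelin genes had 0.47, the 27 other pallial genes 0.24, and the hypothalamus markers had a median of -0.35.

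Dkk3 ranged from 7.37 to 8.13 in batch 1 (median 7.54) and from 7.97 to 8.44 in batch 2 (median 8.15), a difference of 0.54 (SE 0.08, limma adjusted p = 1.9e-05). Mef2c ranged from 9.68 to 10.89 (median 10.07) and from 10.44 to 11.27 (median 10.92), a difference of 0.76 (SE 0.13, adjusted p = 0.0001). In both genes the only overlap came from Chimpanzee batch 1 replicate 1, the highest array of its batch.

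Lamp5 ranged from 8.55 to 9.73 in batch 1 (median 8.82) and from 9.09 to 9.86 in batch 2 (median 9.58), a difference of 0.62 (SE 0.13, limma adjusted p = 0.00047). The corepressor gene Tle4 ranged from 7.09 to 7.6 (median 7.19) and from 7.48 to 7.85 (median 7.76), a difference of 0.46 (SE 0.08, adjusted p = 0.00011). The LIM-only gene Lmo3 ranged from 7.49 to 8.27 (median 7.77) and from 7.96 to 8.43 (median 8.17), a difference of 0.41 (SE 0.08, adjusted p = 0.0004). In Tle4 and Lmo3 too the only array of batch 1 within the range of batch 2 was Chimpanzee batch 1 replicate 1. Ntng2 ran the other way, from 5.25 to 5.82 (median 5.52) in batch 1 and from 5.02 to 5.30 (median 5.24) in batch 2, a difference of -0.35 (SE 0.08, limma adjusted p = 0.0011). Bcl11b (0.44), Rasgrf2 (0.41), Pcp4 (0.38), Cux1 (-0.27) and Emx1 (-0.25) also passed. For Cux1 other probe sets gave 0.05, 0.14 and -0.08, for Bcl11b 0.01, 0.17 and 0.28, and for Rasgrf2 0.57 and 0.33.

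The direction of this difference depends on scaling. The spread of the deposited values differed between the labelled batches, with array SDs on the foods of 1.81 to 2.02 in batch 1 and 2.01 to 2.06 in batch 2. After quantile normalization the median of the 28 genes was -0.06 and that of all features -0.03. There 4 genes were called higher and 6 lower, beside 2442 and 3401 of all 13839 features. After subtraction of each array's median the medians were 0.18 and 0.16, with 10 genes higher and 2 lower, beside 5895 and 1082 features. Dkk3, Mef2c, Tle4 and Lamp5 stayed higher and Ntng2 lower at an adjusted p under 0.05 in both. After quantile normalization their differences were smaller for Dkk3 (0.27), Mef2c (0.25), Tle4 (0.22) and Lamp5 (0.22) and larger for Ntng2 (-0.46), while Lmo3 had 0.12 (adjusted p = 0.12).

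On pellets the sign was turned. The difference between labelled batch 2 and labelled batch 1 was negative for 22 of 28 genes on pellets, with a median of -0.62, and was opposite in sign to that of the 3 foods for 26 of 28. Such signs were not counted over all features, but the turn was not limited to these genes. Pellets minus the foods was positive for 70.4% of all features in labelled batch 1 and for 26.7% in labelled batch 2. Tle4 had 0.46 on the foods and -1.07 on pellets, Dkk3 0.54 and -0.83, Mef2c 0.76 and -0.83, and Ntng2 -0.35 and 0.78. Syt6 and Neurod2 were the 2 genes of 1 sign, and another probe set of Neurod2 gave -0.45 on the foods. The test of a diet-batch interaction was passed by 14 of 28 genes, beside 50.7% of all features, with Dkk3 first (adjusted p = 0.00036). Among the 3 foods alone it was passed by 0 of 28 genes and 0 features in limma, with 0 genes and 222 features past an unadjusted 0.05 and with batch differences of median 0.34 in the Chimpanzee, 0.19 in the HumanCafe and 0.09 in the FastFood group.

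**Figure D4:**
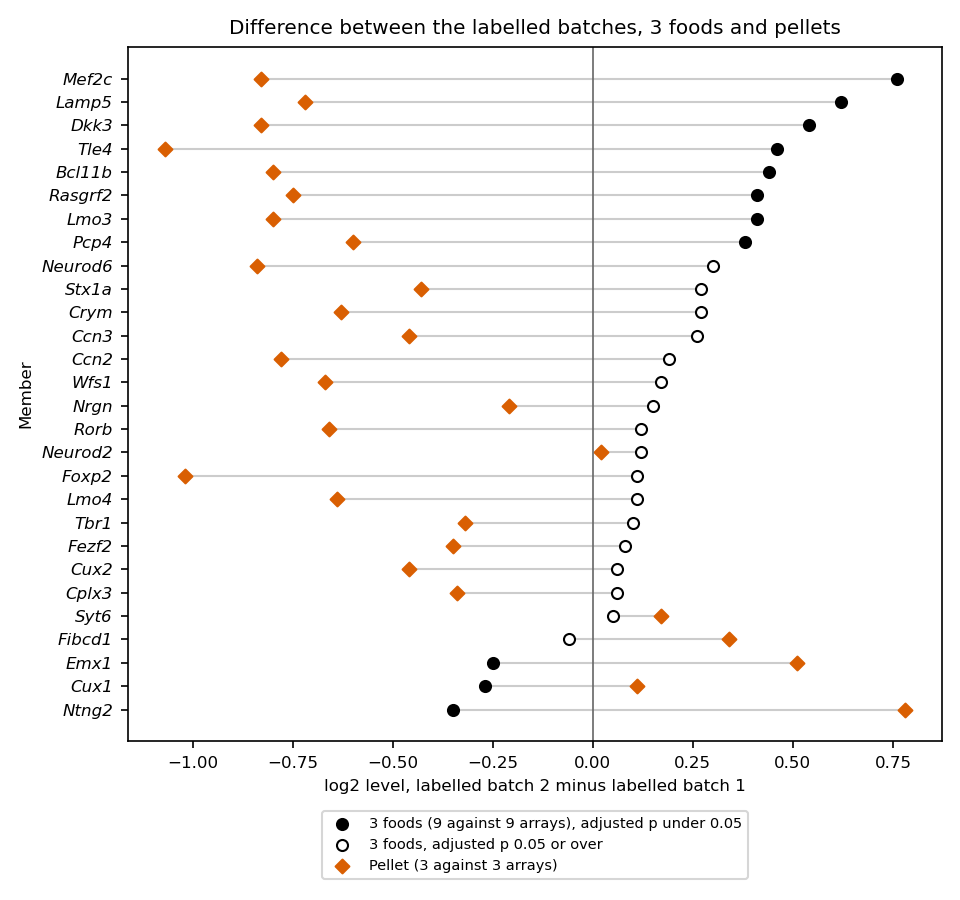
Log2 level in labelled batch 2 minus labelled batch 1 for the 28 tested genes, on the 3 foods (circles, 9 against 9 arrays, filled at an adjusted p under 0.05) and on pellets (diamonds, 3 against 3). The sign on pellets is opposite for 26 of 28 genes, a share that was not counted over all features.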

How the data were processed

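The deposited table holds log2 values for 45101 probe sets on 24 arrays. The paper states that levels were made with robust multichip averaging, with quantile normalization as a step. The deposited arrays did not share 1 distribution, with medians from 4.02 to 4.32 and SDs from 1.58 to 2.06. Control probe sets (64) were set aside. Of the rest, 34945 were annotated to 1 gene, 932 to several and were left out, and 9160 had none listed. Where several probe sets served 1 gene, that of highest mean stood for it, and 13839 features whose mean reached 4.07 (log2), the median over probe sets, were tested.

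Differences were fitted with limma 3.58.1 in R 4.3.3, with diet and labelled batch as terms, and p-values were adjusted by Benjamini-Hochberg over all features. The batch comparison used the 18 arrays of the 3 foods with diet as a term. The fits were tested on simulated data. In each comparison genes past the test were described in full, up to 6 by p, and otherwise the 3 of smallest p. Beside these, every gene is named with its mean. The genes and lists were chosen with earlier results of these data known. Mice are the replicates, each with 1 array, so that their number limits precision, and genes are not replicates. Alternatives were other normalizations, filters, probe set rules and fits, single batches, arrays left out and a replicate block. Same-numbered arrays of different diets in a batch had correlations of -0.51 to 0.48 in 36 pairs (median -0.02), with 14 over 0.1. The median for arrays of different numbers was also -0.02. The mean of each diet and batch was subtracted first. With 3 arrays in each, this cannot decide whether the numbers pair the mice. Promoter sequences are from RefSeq (GRCm38.p6).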

Additional observations from a re-analysis of the deposited data

Results flagged for a closer look

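In 124 groups of 6 mice (31 genes on 4 diets) 13 values lay far from the rest of their group by Dixon's criterion, which chance meets in about 1 in 20 groups. The array Pellet batch 2 replicate 1 gave 7 of them. It was lowest for Rorb at 6.48 (next value 7.43), Neurod6 at 5.43 (6.99) and Nrgn at 9.87 (10.37), and highest for Ntng2 at 7.31 (5.80), Emx1 at 7.40 (6.58), Fibcd1 at 5.64 (4.76) and the untested Otx1 at 4.18 (3.53). In HumanCafe batch 2 replicate 2, Stx1a was high at 10.15 (9.64), Tbr1 at 6.26 (5.86) and Neurod6 at 7.97 (7.31). That array had the lowest relative values of hypothalamus (-1.47), striatum (-0.46) and olfactory bulb (-0.56) markers. The other 3 values were of genes below the filter, Otx1 at 3.62 in Chimpanzee batch 1 replicate 2 (3.35), Prox1 at 3.35 in FastFood batch 1 replicate 2 (3.56, the nearest above) and Prox1 at 3.59 in Pellet batch 1 replicate 1 (3.35).

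The difference between the labelled batches depended on diet for 14 of 28 genes in limma's interaction test, beside 50.7% of all features. In it the pellet arrays ran opposite to the foods.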

How the results depend on the processing

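In the comparisons of human with chimpanzee diets and of fast food with the other foods, 0 genes passed an adjusted p under 0.05 under every alternative that was run. The median of the former ranged from -0.19 to 0.04, with Neurod2 at 0.04 without the 2 chimpanzee diet arrays lowest in thalamus markers, an alternative chosen after seeing the data. With the mean of all probe sets of Cux2 its span over the diets was 0.23. In the test of all 4 diets 15 genes passed in labelled batch 2 alone, beside 43.2% of all features. The pellet comparison called 6 genes with an interaction of diet and batch (14.9% of all features) and 7 with the pellet batch labels exchanged (13.0%). It called 23 in labelled batch 2 alone (67.3%), where the median was -0.64. In labelled batch 1 alone the median was 0.10, with Wfs1 at 0.08 and Ccn2 at 0.06. The batch comparison called 17 genes with array weights, whose estimation stopped short of its tolerance in some fits. The cause of these shifts was not tested. Leaving out 1 array at a time gave 0 calls in the diet comparisons and 10 to 16 between batches, and medians of -0.19 to -0.03 for human diets, -0.04 to 0.04 for fast food, -0.35 to -0.07 for pellets and 0.12 to 0.22 between batches. With the replicate number as a block the counts were 0 in each diet comparison and 11 between batches, and the medians were -0.10, -0.01, -0.22 and 0.16. Shares of all features are not given for the counts with array weights, single arrays left out or the block. Over the 18 single gene values, 239 of 254 alternative values kept direction and side of the threshold, 11 passed it newly, 3 reversed, and Lmo3 between batches fell short after quantile normalization (0.12). With 6 mice per diet and a median within-group SD of 0.24 on the log2 scale, a p that missed the threshold does not show that levels were alike.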
